A study of Homo sapiens with 12 samples.

Results

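PANC-1 cells overexpressing TAp63 were compared with mock PANC-1 cells, using 2 libraries of each, which are 4 of the 12 libraries in the series. The 4 libraries were chosen by their labelled cell line and genotype, and every gene that passed a filter on low values was described. PANC-1 is an established line from a human ductal pancreatic carcinoma. The other libraries come from PANC-1 with deltaNp63 and from a further pancreatic cancer line, AsPC-1, given the same mock, TAp63 or deltaNp63 treatment. The labels call the 2 samples of a group biological replicates and do not say that they are separate cultures, so the p-values measure the spread between these samples. The vector, the TAp63 cDNA, the time after transfer and any selection of clones are not given in the sources used here.

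TP63 encodes a transcription factor of the p53 family. Transcripts from its upstream promoter make TAp63, which carries an acidic activation domain and can switch on p53 target genes, and transcripts from an internal promoter make deltaNp63, the form that maintains basal cells of squamous epithelia. By its title, the study asks about TAp63, squamous pancreatic tumours and a suppressed immune milieu. The comparison with mock bears on whether p53 targets, squamous genes and immune genes differ when TAp63 is added to PANC-1.

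Values are TPM, the share of a library that a transcript takes after allowing for its length, summed over the annotated transcripts of a gene. The depth is unknown, since this unit does not record it, and precision rests on the replicates. Between 13069 and 13138 genes reached 1 TPM in each of the 4 libraries. Across 14767 tested genes, log2(TPM + 1) correlated between replicates with Pearson's r of 0.992 for mock and 0.994 for TAp63, and the median absolute difference between replicates was 0.110 and 0.092 log2 units. Epithelial keratins were high, with KRT8 at 1566 to 1753 TPM and KRT19 at 707 to 756 TPM over the 4 libraries. Defining markers of other cells were near 0: PTPRC and CD3E of leukocytes were at most 0.0094 TPM, and the 3 endothelial markers with values summed to at most 0.259 TPM. The 7 acinar and islet markers summed to at most 0.658 TPM. CD68, a lysosomal protein that is abundant in macrophages, was the exception among 8 leukocyte markers, at 255 to 285 TPM, and ITGAM reached 1.29 TPM.

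TP63 (ENSG00000073282) spans 189631389 to 189897276 on chromosome 3 (plus strand, hg38, GENCODE v44). It was at 0.119 and 0.0245 TPM in the mock libraries and at 324 and 342 TPM in the TAp63 libraries. Both TAp63 libraries were far above both mock libraries, and TP63 ranked 409 of 14767 genes by its mean level with TAp63. On the log2(TPM + 1) scale TP63 rose by 8.28 (SE 0.252, 95% confidence interval 7.72 to 8.85, limma adjusted p 3.83e-07). ENSG00000227971 and MIR944 overlap the gene, so reads could be divided with them.

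The TP63 signal fell on 3 annotated transcripts, and the stretches that set them apart are shown here because they say which form of p63 the libraries hold. TP63-210 and TP63-204 begin with the TA first coding exon, at chr3:189631516-189631577, and TP63-211 begins with the deltaN first coding exon, at chr3:189789801-189789842. The capitals in the first pair of sequences mark the start codon. TP63-211 also lacks exon 4, so its first exon joins exon 5, and the capitals in that junction mark the bases of exon 5. TP63-210 runs from exon 12 into exon 13, whereas TP63-204 leaves out the 94 bases of exon 13, and the capitals mark the exon after each junction. Exon 8 ends 12 bases earlier in TP63-210 than in the other pair of transcripts, and the capitals in the last sequence mark those bases, at chr3:189868705-189868716. All are coding sequence on the plus strand of hg38, taken from GENCODE v44 transcripts, with exons numbered as in TP63-201.
TA first coding exon, TP63-210 and TP63-204: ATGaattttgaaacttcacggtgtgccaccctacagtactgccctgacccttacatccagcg
deltaN first coding exon, TP63-211: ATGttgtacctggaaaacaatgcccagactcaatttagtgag
deltaN exon to exon 5, TP63-211: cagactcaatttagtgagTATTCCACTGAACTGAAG
exon 12 to exon 13, TP63-210: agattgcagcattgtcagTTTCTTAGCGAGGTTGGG
exon 12 to exon 14, TP63-204: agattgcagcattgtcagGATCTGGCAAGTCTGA
end of exon 8, TP63-204: gtacaaagaacggtgatgGTACGAAGCGCC

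TP63-210, with 2028 coding bases, was at 108 and 120 TPM in the TAp63 libraries. TP63-204, with 1665 coding bases, was at 90.1 and 94.8 TPM, and TP63-211, with 1503 coding bases, was at 126 and 127 TPM. The replicates gave like values for each of the 3 transcripts, and no other TP63 transcript exceeded 0.188 TPM in either library. TP63-201, the full-length TA transcript with the longer exon 8, was at 0 and 0.0153 TPM. Transcripts with the TA start thus held 61.2% and 62.8% of the TP63 signal, and the remainder, 38.8% and 37.2%, was assigned to a transcript with the deltaN start. In the deltaNp63 libraries of PANC-1 the TA start held 0.0347% and 0.0148%, and TP63-211 was at 251 and 429 TPM. These shares depend on how shared exons were divided among transcripts, a step that is not given in the sources used here. The 3 transcripts have 3 bases each outside the coding bases, against 2904 in TP63-201. The coding bases are counted without the stop codon, which is the closing TGA of the TP63-204 sequence shown.

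**Figure D1:**
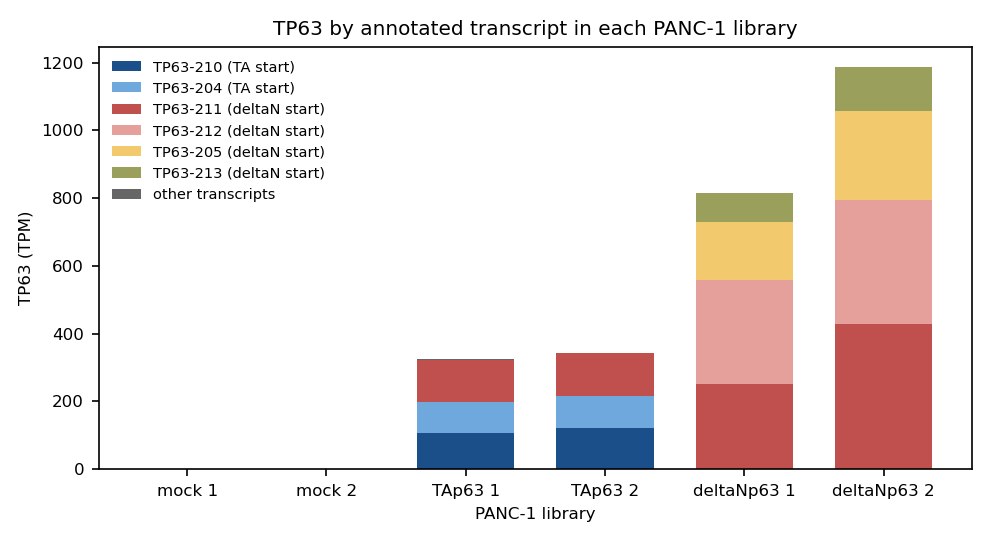
TP63 level (TPM, vertical axis from 0) in each of the 6 PANC-1 libraries, stacked by annotated transcript. The mock libraries have no visible bar, the TAp63 bars reach 324 and 342 TPM with 3 transcripts, and the deltaNp63 bars reach 815 and 1187 TPM with almost none of the TA start.

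Across all genes, TP63 was the single gene past the threshold, a limma adjusted p under 0.05. The call rate was thus 0.00677% of 14767 genes for higher and 0% for lower expression. At a limma unadjusted p under 0.05, 260 genes were higher with TAp63 (1.76%) and 243 were lower (1.65%). These 503 genes rest on a spread shared by all 12 libraries. Limma fits to only the 6 PANC-1 libraries or only the 4 compared gave 1167 and 1442 such genes. In each of these fits TP63 was again the 1 gene past the threshold. The values of the mock and TAp63 libraries did not overlap for 3245 genes that were higher with TAp63 (22%) and 3011 that were lower (20.4%), which is the background for the counts below. The median log2 fold change of all genes was 0, with a 5th percentile of -0.26 and a 95th percentile of 0.29. The median 95% confidence interval reached 0.32 log2 units to either side. Among 4480 genes with a mean of 20 to 100 TPM, the intervals of 4449 lay within 1 unit in either direction on the log2(TPM + 1) scale. For the 1668 genes below 1 TPM, 1377 intervals did so, but on this scale that does not limit the ratio of their TPM to 2. Other choices gave more calls, mostly among low genes: 49 genes passed without the filter on low values, of which 45 had a mean under 1 TPM. DESI1, at a mean of 35.5 TPM, was the most abundant of the 49 besides TP63. Without mock replicate 1, mock replicate 2, TAp63 replicate 1 or TAp63 replicate 2, 2, 4, 6 and 4 genes passed, TP63 among them each time.

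**Figure D2:**
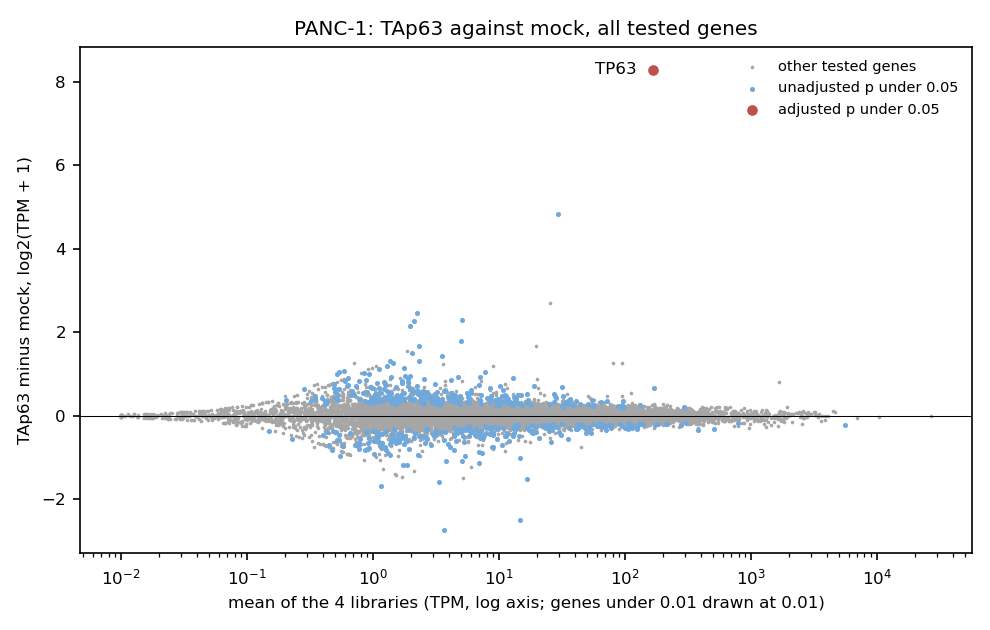
Difference between TAp63 and mock on the log2(TPM + 1) scale (vertical axis) against the mean level of the 4 libraries (TPM, log axis) for the 14767 tested genes. TP63 stands alone at 8.28, and most other genes lie between -0.26 and 0.29.

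A difference above 1 on the log2(TPM + 1) scale, in either direction, was measured for 54 genes, of which 1 was TP63. Among the 54, 37 had a mean under 5 TPM and 37 were not protein coding. Low genes can differ more in TPM without reaching this limit. The mean TPM of TRIM29, for example, had a ratio of 2.13 and its difference on this scale was 0.37. The next genes by p-value were noncoding and low. ENSG00000226767, a processed pseudogene, was listed at 0 in both mock libraries and at 1.02 and 1.15 TPM with TAp63. ENSG00000250976, a long noncoding RNA within CACNA1G, was at 3.19 and 1.44 TPM in mock and listed at 0 in both TAp63 libraries. Its log2 difference from mock was -1.68 with TAp63 and also -1.68 with deltaNp63, which was compared with the same mock libraries. That of ENSG00000226767 was 1.06 with TAp63 and 0 with deltaNp63. Each reached the filter on low values only through libraries in which it is high, so the values are given as a description. Both were among the 49 genes that passed without that filter. These and DESI1 below were singled out after their values had been seen, for their small p-values.

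Among genes with a mean of at least 5 TPM, the larger differences were as follows, and none passed. SNURF, an imprinted gene that shares its transcripts with SNRPN, was at 4.05 and 5.42 TPM in mock and at 11.6 and 9.94 TPM with TAp63, a log2 difference of 1.04 (limma adjusted p 0.0913, SE 0.143). The deltaNp63 libraries held 9.80 and 10.7 TPM, in a comparison that shares the mock libraries. SNURF was listed at 0 in the AsPC-1 mock and TAp63 libraries, which thus add no spread to the SE that all groups share. The counts of SNURF and SNRPN cannot be told apart with certainty, because the genes overlap. DESI1, which encodes a deSUMOylating isopeptidase, was at 43.4 and 41.3 TPM in mock and at 28.4 and 28.8 TPM with TAp63. Its log2 difference was -0.55 (limma adjusted p 0.121), with replicates close together and no overlap. Without the filter on low values DESI1 passed (limma adjusted p 0.0219), and over all the other settings its adjusted p lay between 0.087 and 0.692.

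FDXR, the ferredoxin reductase that passes electrons to mitochondrial cytochrome P450 enzymes and a known target of p53 and p73, was at 13.8 and 14.3 TPM in mock. With TAp63 it was at 23.2 and 24.3 TPM, a log2 difference of 0.72 (SE 0.138, 95% confidence interval 0.41 to 1.02, limma adjusted p 0.466). The TAp63 values were above both mock values and above the 15.1 and 13.9 TPM of the deltaNp63 libraries, a difference between constructs that was not tested here. Other genes higher in both TAp63 libraries were the RNA helicase DHX37, at 9.46 and 7.55 TPM against 12.7 and 21.7 TPM, and the lactonase PON2, at 24.2 and 23.6 TPM against 33.4 and 46.0 TPM. FMC1, a mitochondrial assembly factor that overlaps the read-through gene FMC1-LUC7L2, was at 8.15 and 6.94 TPM against 13.8 and 12.3 TPM. In the deltaNp63 libraries, DHX37 was at 18.5 and 14.5 TPM, PON2 at 48.6 and 38.8 TPM and FMC1 at 9.63 and 12.8 TPM. Unlike those of FDXR, these deltaNp63 values all lay above both mock values. The spread between the TAp63 replicates was wide for DHX37 and PON2 and narrow for FMC1 and FDXR.

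On the lower side, MYD88, the adaptor of Toll-like and interleukin-1 receptors, was at 6.25 and 8.20 TPM in mock and at 2.11 and 3.70 TPM with TAp63. Its log2 difference was -1.09 (SE 0.277, limma adjusted p 0.887). ITSN2, an endocytic scaffold, was at 10.4 and 9.25 TPM against 4.48 and 3.50 TPM (-1.12), and the zinc-finger repressor ZNF350 was at 13.01 and 10.1 TPM against 6.93 and 5.97 TPM (-0.75). The mock and TAp63 groups did not overlap for any of these genes. In the deltaNp63 libraries, MYD88 was at 4.97 and 3.66 TPM, ZNF350 at 7.89 and 8.40 TPM and ITSN2 at 4.73 and 11.3 TPM. The deltaNp63 values of MYD88 and ZNF350 lay below both mock values, and those of ITSN2 lay on either side of them. ENSG00000228144, ISCA1P4, ENSG00000267125, ENSG00000251550, ENSG00000250264, ENSG00000290396 and HMSD were also lower, with log2 differences of -2.50 to -0.76. Apart from ISCA1P4, each overlaps another gene. With deltaNp63, against the same mock libraries, the differences of these genes ran from -2.49 (ENSG00000228144) to 0.048 (ENSG00000250264). NPIPP1, TRBJ2-3, TMCO1, JMJD4 and ENSG00000270705 were higher, with differences of 0.74 to 4.84. ENSG00000270705, a processed pseudogene of 42 bases, was listed at 0 in both mock libraries and at 6.22 and 112.6 TPM with TAp63, so a single library set its mean.

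Transcript rows were also tested on their own, after which 7 of 47437 passed (0.0148%). The 3 TP63 transcripts were among them. HSD17B4-214 was listed at 0 in mock and was at 3.63 and 4.88 TPM with TAp63, and CNN3-207 was at 6.63 and 12.3 TPM in mock and 0.000122 and 0.142 TPM with TAp63. RNF121-207 was at 7.08 and 6.90 TPM against 0.813 and 1.02 TPM, and DEDD-203 was at 8.27 and 8.92 TPM against 0.281 and 0.000124 TPM. Their genes did not pass as sums: HSD17B4 differed by 0.30 (-0.47 without mock replicate 2), CNN3 by -0.23, RNF121 by -0.0044 and DEDD by 0.12 log2 units. RNF121 as a gene was at 38.3 and 43.3 TPM in mock and at 42.4 and 38.8 TPM with TAp63. These transcripts were singled out after their values were seen.

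Of 39 p53 family targets, 37 were tested and 0 passed. Their median log2 fold change was 0.022, beside 0 for all genes, with 22 above 0 and 15 below. Targets with a limma unadjusted p under 0.05 numbered 3 higher and 0 lower, beside 1.76% and 1.65% of all genes. The 3 were FDXR, TP53I3 and BTG2. TP53I3, an oxidoreductase linked to apoptosis, was at 30.3 and 29.6 TPM in mock and at 36.4 and 33.8 TPM with TAp63 (0.22, limma adjusted p 1). BTG2, an antiproliferative factor named after its value was seen, was at 1.44 and 1.51 TPM against 2.09 and 2.68 TPM (0.45, limma adjusted p 1). In both genes the TAp63 values lay above the mock values.

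Among other well-known targets, the groups overlapped for CDKN1A, MDM2, GDF15 and PERP. CDKN1A, the p21 inhibitor of cyclin-dependent kinases, was at 91.8 and 106.7 TPM in mock and at 105 and 95.5 TPM with TAp63, a log2 difference of 0.016 (95% confidence interval -0.28 to 0.32). MDM2, the ligase that degrades p53, was at 17.5 and 20.5 TPM against 18.1 and 20.4 TPM. The secreted stress factor GDF15 was at 167 and 180.0 TPM against 182 and 179.9 TPM. PERP, a p63 target needed for desmosomes, was at 608 and 504.2 TPM against 547 and 522 TPM (-0.052, 95% confidence interval -0.31 to 0.21). BBC3, which encodes the death-promoting protein PUMA, was at 14.3 and 13.6 TPM against 16.4 and 14.7 TPM, so its groups did not overlap while its interval, -0.29 to 0.58, spanned 0. PMAIP1, which encodes NOXA and is named here after its value was seen, was at 53.9 and 57.0 TPM against 45.8 and 40.5 TPM (-0.36), without overlap. By role, the median was 0.016 for 7 cell-cycle arrest genes, 0.037 for 10 apoptosis genes, 0.057 for 9 feedback and repair genes and -0.014 for 11 genes of metabolism, stress and secretion.

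Among the family members, TP73 was at 2.71 and 3.11 TPM in mock and at 3.30 and 3.77 TPM with TAp63 (0.22, limma adjusted p 1). In the apoptosis machinery, 16 of 18 genes were tested, 0 passed, and the median was -0.039. CASP8, the initiator caspase of death receptors, was at 47.0 and 45.2 TPM in mock and at 38.6 and 35.2 TPM with TAp63, a log2 difference of -0.32 (95% confidence interval -0.56 to -0.07, limma adjusted p 1).

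Squamous differentiation was read from keratins, cornified-envelope genes, hemidesmosomes and desmosomes. Of 29 squamous keratin and cornification genes, 20 were below the filter in the series. KRT5 was at most 0.175 TPM and KRT14 at most 0.482 TPM in the 4 libraries, and IVL, which encodes involucrin, was listed at 0 in all of them. The 9 genes tested included 0 past the threshold and had a median of 0.22. The groups did not overlap for 5 on the higher side (55.6%) and 1 on the lower (11.1%), beside 22% and 20.4% of all genes. With deltaNp63, which was compared with the same mock libraries, the median of this list was 0.23. KRT17 was at 10.9 and 12.7 TPM in mock and at 16.03 and 12.98 TPM with TAp63 (0.28, 95% confidence interval -0.15 to 0.70). The calcium-binding S100A2 was at 35.2 and 33.5 TPM against 44.9 and 36.4 TPM (0.23), and TRIM29 was at 0.483 and 0.203 TPM against 0.899 and 0.564 TPM (0.37). KRT15, named after its value was seen, was at 10.6 and 10.5 TPM against 7.997 and 9.24 TPM (-0.27). Of the 9 genes, KRT16, CSTA, TRIM29, SERPINB5 and FGFBP1 were below 1 TPM in all 4 libraries, and FGFBP1 was listed at 0 in all of them. The list median for TAp63 against mock ranged from 0.091 to 0.20 when 1 library was left out.

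All 9 hemidesmosome and laminin-332 genes were tested, with a median of 0.012 and 0 past the threshold. ITGB4, the hemidesmosomal integrin chain, was at 10.9 and 8.13 TPM in mock and at 9.24 and 9.82 TPM with TAp63, and LAMB3 was at 1.75 and 2.17 TPM against 2.23 and 2.40 TPM. The desmosome genes had a median of 0.0045 over 7 tested. JUP, plakoglobin, was at 80.9 and 80.5 TPM in mock and at 94.8 and 95.8 TPM with TAp63 (0.24, SE 0.098, limma adjusted p 1), and PKP3, plakophilin 3, was at 31.8 and 32.9 TPM against 41.3 and 38.02 TPM (0.29, limma adjusted p 1). Replicates of JUP and PKP3 lay close together and the groups did not overlap. DSC2, a desmosomal cadherin named after its value was seen, went the other way, at 4.92 and 4.77 TPM against 4.17 and 3.62 TPM (-0.26). DSP, desmoplakin, was at 7.15 and 7.80 TPM against 7.77 and 7.52 TPM. Among epidermal transcription factors, KLF4 was at 14.9 and 15.997 TPM against 15.9 and 14.7 TPM, and the 10 tested had a median of 0.066.

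The classical programme, the counterpart of the squamous subtype, gave 0 calls among 23 genes tested of 35, with a median of -0.012. GATA6, its leading transcription factor, was at 0.445 and 0.719 TPM in mock and at 0.715 and 0.718 TPM with TAp63. TFF1, a secreted trefoil peptide, was listed at 0 in both mock libraries and at 0.492 and 0.308 TPM with TAp63 (0.48, limma adjusted p 1). AGR2, a secretory chaperone, was at 111.4 and 92.9 TPM against 81.8 and 104.2 TPM, and the ductal factor SOX9, named after its value was seen, was at 61.9 and 68.0 TPM against 63.7 and 58.8 TPM, so both overlapped. MUC5AC was not analysed here. Of 19 genes of the epithelial-mesenchymal transition and its junctions, 18 were tested and 0 passed. VIM, vimentin, was at 4439 and 4695 TPM in mock and at 4943 and 4704 TPM with TAp63, CDH1 was at 3.51 and 2.42 TPM against 3.74 and 3.69 TPM, and ZEB1 was at 22.3 and 22.9 TPM against 20.5 and 23.5 TPM.

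Interferon genes were abundant in PANC-1 with and without TAp63, and none of them passed the test. Type I and III interferons bind receptors that act through the kinases JAK1 and TYK2 to switch on antiviral genes. IFNL2, a type III interferon, was at 503 and 528 TPM in mock and at 616 and 577 TPM with TAp63, a log2 difference of 0.21 (95% confidence interval -0.04 to 0.46, limma adjusted p 1). IFNL2 has a near-identical neighbour in IFNL3, so reads may be divided between them. IRF1, a transcription factor of the interferon response, was at 120.1 and 120.3 TPM against 150.2 and 139 TPM (0.26, limma adjusted p 1), without overlap. Of the 18 signalling genes tested, 0 passed and the median was -0.010.

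The 38 interferon-stimulated genes with values were all tested, and 0 passed in PANC-1. Their summed level was 11904 and 12045 TPM in mock and 12213 and 11698 TPM with TAp63, so the sums overlapped. Their log2 fold changes lay between -0.24 and 0.20 with a median of -0.060, with 14 above 0 and 24 below. Values did not overlap between the groups for 6 on the higher side (15.8%) and 14 on the lower (36.8%), beside 22% and 20.4% of all genes. Of the 38, 19 were at 100 TPM or more in all 4 libraries. IFIT1, which binds foreign RNA caps, was at 958 and 920 TPM in mock and at 857 and 807 TPM with TAp63 (-0.17, 95% confidence interval -0.40 to 0.05), and MX1, an antiviral GTPase, was at 429 and 439 TPM against 458 and 430 TPM. IFIT2 and IFIT5, the 2 members with the smallest p-values, differed by -0.22 and -0.20 log2 units. ISG15 was not analysed here. Among 11 RNA and DNA sensors the median was -0.14, and RIGI was at 167 and 153 TPM against 149 and 136 TPM.

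TAp63 overexpression gave other values for these genes in AsPC-1, whose mock and TAp63 libraries are separate from those of PANC-1. TP63 itself was at 102 and 170 TPM in AsPC-1 TAp63, against 324 and 342 TPM in PANC-1 TAp63. Whether this difference in level bears on the differences between the lines was not tested. In AsPC-1, 33 of the 38 passed as lower, beside 90 of all 14767 genes (0.609%), and the median was -1.06. An interaction test of whether TAp63 acted alike in both lines passed for 11 genes (0.0745%), all with the higher fold change in PANC-1. They were IFIT3, IFIT1, SLC15A3, IFNL2, IFI6, UBE2L6, PARP12, OAS2, SAMHD1, BST2 and CMPK2, and 6 of them belong to the 38. IFIT1 was at 223 and 186 TPM in AsPC-1 mock and at 73.6 and 82.9 TPM in AsPC-1 TAp63, and the difference between the cell lines was 1.197 (SE 0.144, limma adjusted p 0.0285). IFI6 was at 3184 and 3180 TPM in PANC-1 mock and at 3325 and 3167 TPM in PANC-1 TAp63, and it differed between the lines by 1.46 (SE 0.178, limma adjusted p 0.0285). CMPK2, a mitochondrial nucleotide kinase, was at 97.1 and 102.5 TPM against 106.3 and 88.3 TPM in PANC-1 and differed by 2.08 (SE 0.288, limma adjusted p 0.0431). The count of 11 was not stable: the number of calls was 1 without either mock replicate or TAp63 replicate 2 of PANC-1, 4 without TAp63 replicate 1, 1 without either mock replicate or TAp63 replicate 1 of AsPC-1, 23 without AsPC-1 TAp63 replicate 2, and 0 without the trend in limma, where 1493 genes had an unadjusted p under 0.05. None of the 11 was among the calls in the 6 fits without a PANC-1 library or an AsPC-1 mock library, and in 3 of these fits 1 call was in the opposite direction. Without AsPC-1 TAp63 replicate 1 or 2, 1 and 9 of the 11 passed. In 176 values of these 11 differences under other settings, 0 were below 0 and 107 did not pass. The lowest was 0.72 and the highest 2.23.

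**Figure D3:**
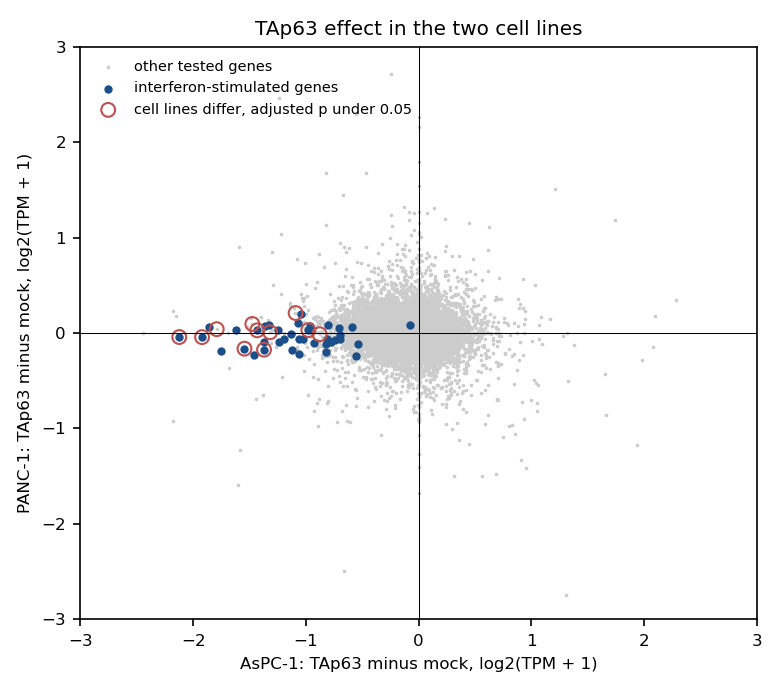
TAp63 minus mock on the log2(TPM + 1) scale in AsPC-1 (horizontal axis) and PANC-1 (vertical axis) for tested genes other than TP63. The 38 interferon-stimulated genes lie between -0.24 and 0.20 in PANC-1 while their AsPC-1 median is -1.06; circles mark the 11 genes that differ between the lines, and 1 gene lies outside the axes.

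For the 93 genes other than TP63 that passed with TAp63 in AsPC-1, 90 of them lower there, the median was -0.92 in AsPC-1 and -0.014 in PANC-1. Their PANC-1 values ranged from -0.32 to 0.36, with 40 above 0 and 51 below, and 0 passed. In PANC-1, 3 of the 93 had a limma unadjusted p under 0.05, beside 503 of all 14767 genes. Over 14766 genes without TP63, the effects in the lines had a Pearson's r of -0.096 and a Spearman's rho of -0.12. Genes are not independent replicates, so these coefficients describe the libraries.

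Antigen presentation and immune signalling were described next. The 18 MHC class I genes had a median of 0.0049 and 0 passed. B2M, the light chain of class I molecules, was at 6016 and 6131 TPM in mock and at 5414 and 5013 TPM with TAp63, a log2 difference of -0.22 (limma adjusted p 1). The class I heavy chain genes resemble each other, so the division of their reads is uncertain.

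Of 29 cytokines and chemokines, 22 were tested and 0 passed. Their median was -0.034, and 3 of the 22 had a limma unadjusted p under 0.05, all lower, beside 1.65% of all genes. CXCL1, a chemokine for neutrophils, was at 10.03 and 11.6 TPM in mock and at 8.83 and 8.28 TPM with TAp63 (-0.30, limma adjusted p 1). CCL2, which draws monocytes, was at 115 and 138 TPM against 110.2 and 95.9 TPM (-0.29, limma adjusted p 1). IL18 was at 41.3 and 38.8 TPM against 32.5 and 32.0 TPM (-0.30, 95% confidence interval -0.53 to -0.08, limma adjusted p 1). In all 3 genes both TAp63 values were below both mock values, with the narrowest spread in IL18. CXCL8 overlapped between the groups, at 10.3 and 12.7 TPM against 10.3 and 8.30 TPM, and CSF1 was at 83.1 and 85.9 TPM against 88.9 and 82.6 TPM. IL6 was at 0.939 and 1.03 TPM against 0.726 and 0.669 TPM, below the filter, and IL1B did not exceed 0.0255 TPM. The 5 neutrophil chemokines tested had a median of -0.28, the 6 T-cell and monocyte chemokines -0.031, and the 11 interleukins and growth factors 0.0073.

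Of 18 immune checkpoint and suppression genes, 12 were tested, 0 passed and the median was -0.033. CD274, the PD-L1 ligand, was at 1.81 and 3.54 TPM in mock and at 2.92 and 1.86 TPM with TAp63 (-0.090, 95% confidence interval -0.66 to 0.48). NT5E, the CD73 enzyme that makes adenosine, was at 346 and 386 TPM against 320 and 325 TPM (-0.18), and the anti-phagocytic signal CD47 was at 171 and 153 TPM against 145 and 130.4 TPM (-0.23). In the NF-kB pathway, 10 genes had a median of 0.036. RELB was at 12.5 and 19.0 TPM against 25.2 and 25.3 TPM, a log2 difference of 0.67 whose interval, -0.26 to 1.61, spanned 0. NFKBIA, an inhibitor in the pathway, was at 199 and 212.4 TPM against 212.5 and 195 TPM.

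Collagens form the scaffold of the extracellular matrix. Of 17 collagens, 11 were tested, and all 11 had a log2 fold change above 0, with a median of 0.17 beside 0 for all genes. The groups did not overlap for 7 of the 11 (63.6%), all higher with TAp63, beside 22% of all genes, and 0 passed. COL1A1, the main chain of fibrillar type I collagen, was at 84.1 and 86.1 TPM in mock and at 108 and 111 TPM with TAp63 (0.36, SE 0.132, limma adjusted p 1). COL16A1, a collagen associated with fibrils, was at 0.691 and 0.806 TPM against 1.62 and 1.82 TPM (0.64, SE 0.199, limma adjusted p 1). With deltaNp63, which was compared with the same mock libraries, COL1A1 differed by -0.0086 and the list median was -0.025. COL16A1 differed by 0.26 with deltaNp63, at 1.59 and 0.687 TPM, so 1 of these values was near those with TAp63. COL4A1 of basement membranes was at 0.238 and 0.262 TPM against 0.327 and 0.178 TPM, below the filter, and COL1A2, the partner chain of type I collagen named after its value was seen, did not exceed 0.075 TPM. Other fibroblast markers were near 0, with DCN at most 0.133 TPM, COL3A1 at most 0.114 TPM and FAP listed at 0 in all 4 libraries.

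The Notch pathway, in which ligands on one cell bind receptors on the next and trigger their cleavage by proteases, had 14 of 17 genes tested, 12 of them above 0, a median of 0.11 and 0 past the threshold. JAG2, a ligand, was at 9.81 and 10.9 TPM in mock and at 14.7 and 12.5 TPM with TAp63 (0.36, 95% confidence interval -0.03 to 0.75). The receptor NOTCH3 was at 1.00 and 0.679 TPM against 1.23 and 1.15 TPM (0.25), JAG1 was at 16.1 and 19.2 TPM against 18.7 and 17.3 TPM, and NOTCH1 was listed at 0 in all 4 libraries. The integrins outside the hemidesmosome had a median of -0.089 over 9 genes, and ITGB1 was at 796 and 766 TPM against 770 and 731 TPM. The 11 tested proteases and plasminogen activators had a median of -0.062. PLAU was at 566 and 662 TPM against 580 and 563 TPM, and MMP2 was at 54.0 and 52.0 TPM against 60.8 and 58.3 TPM.

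Growth pathways gave medians within 0.05 of 0 for the TGF-beta and BMP list (20 genes, -0.046), the EGF receptor list (19 genes, -0.047) and the Hippo list (13 genes, 0.037), with 0 calls. EGFR was at 61.2 and 69.4 TPM in mock and at 67.1 and 61.6 TPM with TAp63, so the groups overlapped. In the cell cycle list, 40 of 41 genes were tested, the median was 0.0096, and 14 replication genes had a median of 0.069. MKI67 was at 39.1 and 41.3 TPM against 42.3 and 45.6 TPM, MCM2 was at 98.4 and 99.4 TPM against 111.6 and 112.9 TPM (0.18), and MYC was at 94.7 and 114 TPM against 104.6 and 100.1 TPM. CCNE2, a cyclin of the G1 to S transition, was at 23.4 and 21.6 TPM against 16.9 and 17.0 TPM (-0.38, limma adjusted p 1).

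The mitochondrially encoded subunits were the lowest list, with 13 of 13 below 0, a median of -0.22 and 0 past the threshold. MT-CO1 was at 2999 and 2426 TPM in mock and at 2507 and 2241 TPM with TAp63, and MT-ND1 was at 981 and 743 TPM against 762 and 673 TPM. Mock replicate 1 was the highest and TAp63 replicate 2 the lowest library for all 13 genes, and the groups overlapped for all but MT-CO3. The 13 genes took 2.09% and 1.62% of the TPM in mock and 1.69% and 1.52% with TAp63. Without mock replicate 1 the median was -0.025, and without mock replicate 2 it was -0.41, so a single control library decided its size.

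Other metabolic and stress lists had medians between -0.10 and 0.046 and 0 calls. Glycolysis and lactate export had 18 of 22 genes above 0 and a median of 0.040, with LDHA at 1364 and 1317 TPM in mock and at 1355 and 1384 TPM with TAp63. FASN was at 99.9 and 105.8 TPM against 125.8 and 117 TPM (0.24), and the 26 sterol and fatty acid genes had a median of 0.046. SLC7A11, the cystine transporter that p53 is known to repress, was at 8.19 and 8.04 TPM in mock and at 6.26 and 5.56 TPM with TAp63 (-0.40, 95% confidence interval -0.65 to -0.15, limma adjusted p 1). It was lower in both TAp63 libraries, whereas the 25 antioxidant genes had a median of -0.0084. The deltaNp63 libraries held SLC7A11 at 5.77 and 6.59 TPM (-0.35), in a comparison that shares the mock libraries. HERPUD1, a gene of the unfolded protein response, was at 42.5 and 51.9 TPM against 41.1 and 36.7 TPM (-0.27), and the stress list had a median of -0.0018. The hypoxia list had a median of -0.10 over 14 genes, the heat shock list -0.011 over 10, and the metallothioneins -0.024 over 10. Of 84 ribosomal protein genes, 82 were tested with a median of -0.011. RPS26 was at 32.4 and 30.6 TPM against 20.1 and 19.9 TPM (-0.63, SE 0.18, limma adjusted p 1), and it has many near-identical pseudogenes among which reads can be split.

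**Figure D4:**
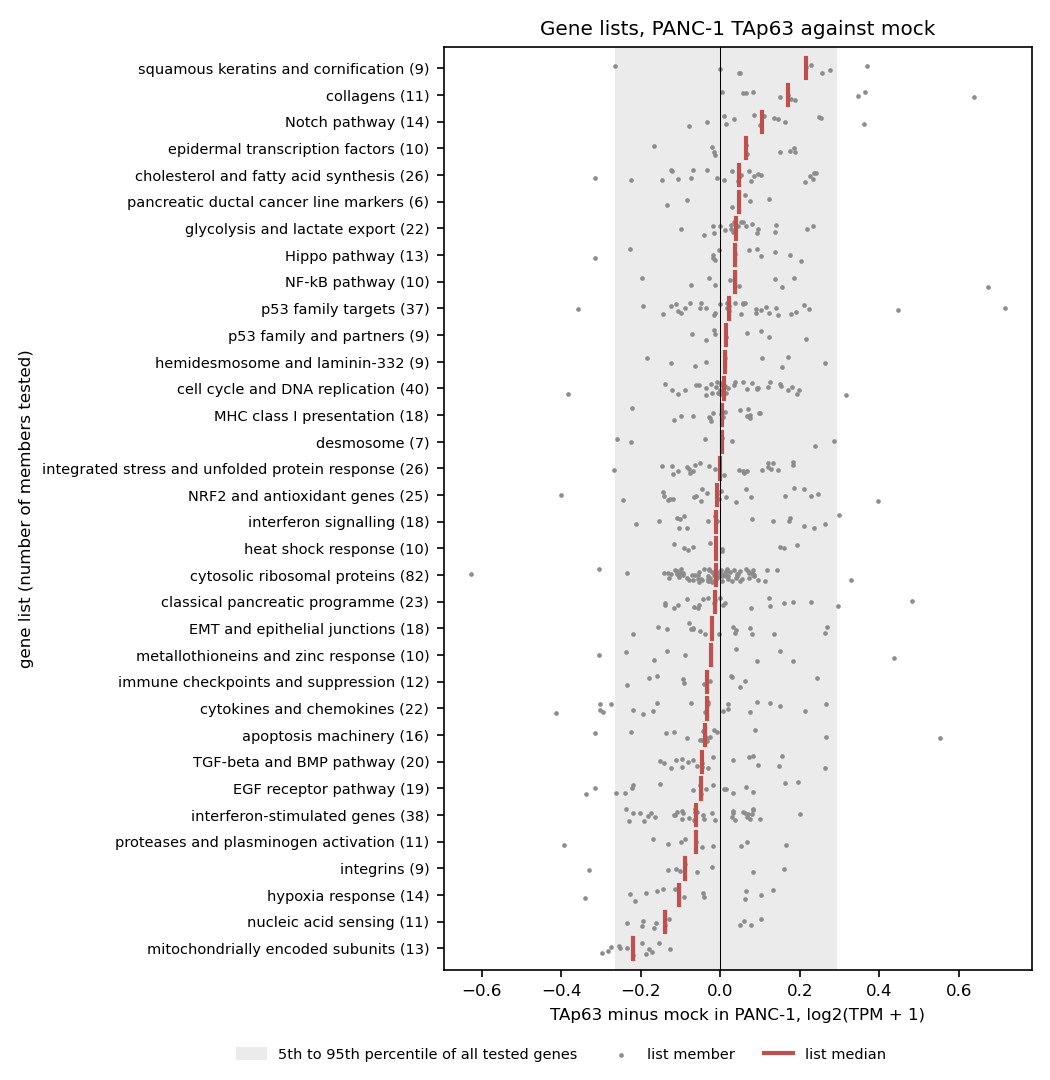
Difference between TAp63 and mock in PANC-1 on the log2(TPM + 1) scale (horizontal axis) for the members of each of 34 lists with at least 5 tested genes; points are genes, bars are list medians, and the grey band is -0.26 to 0.29, the 5th to 95th percentile of all genes. List medians run from -0.22 for mitochondrially encoded subunits to 0.22 for squamous keratins and cornification, all inside the band.

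Over all lists, 639 distinct members were tested and 0 passed, with a smallest limma adjusted p of 0.466, that of FDXR. Of these members, 8 were higher and 11 lower at a limma unadjusted p under 0.05, which is 1.25% and 1.72%, beside 1.76% and 1.65% of all genes. The 95% confidence intervals of 627 of the 639 lay within 1 unit in either direction on the log2(TPM + 1) scale. For low genes this does not limit the ratio of TPM. The mean TPM of SERPINB5 had a ratio of 22.8, while its interval was -0.025 to 0.53.

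**Figure D5:**
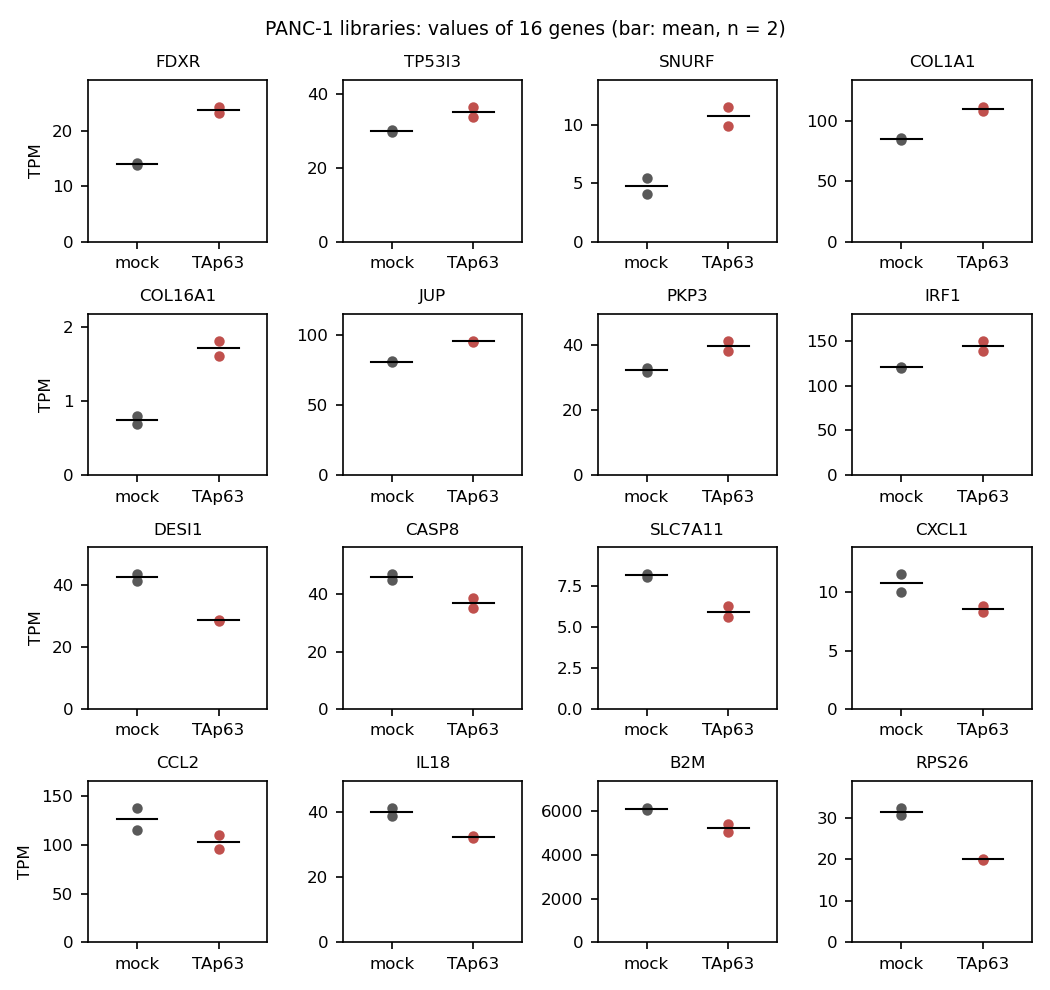
Level of 16 genes (TPM, vertical axes from 0) in the 2 mock and 2 TAp63 libraries of PANC-1; points are libraries and bars are group means. In each gene the mock and TAp63 points do not overlap, as for FDXR at 13.8 and 14.3 against 23.2 and 24.3 TPM, and the genes were picked after their values were seen.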

How the data were processed

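The deposited table holds TPM values made by the authors for 153329 Ensembl transcripts in 12 libraries, each column summing to 1000000. RNA was purified on columns and libraries were made with a stranded mRNA kit, per the labels' protocols. The quantifier, genome build and annotation are not given in the sources used here. Transcripts were paired with genes through GENCODE v44 (hg38), which matched 139819 (91.2%) holding 90.3% to 90.5% of the TPM in the 4 libraries, and TPM was summed per gene. Each column was matched to its sample by title.

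Values were analysed as log2(TPM + 1), a scale that understates changes of low genes. The filter kept any gene that reached 1 TPM in 2 or more of the 12 libraries. One model with 6 group means was fitted to all 12 libraries in limma 3.58.1 (R 4.3.3; eBayes with trend; 6 residual degrees of freedom), so the groups share the spread. P-values were two-sided and adjusted by the Benjamini-Hochberg method over all tested genes, with a threshold of 0.05. The difference between cell lines was an interaction contrast. The fit was tested on simulated data.

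The groups compared and the 38 gene lists were chosen with earlier results of these data known. Genes named were TP63, those past the threshold, the 10 largest rises and falls among genes of at least 5 TPM without overlap and with an unadjusted p under 0.05, the lead members of each list and 2 further members with the smallest p. Other genes were named after their values were seen. Gene symbols follow GENCODE. List members without a paired transcript were not analysed here. Values of some list members are not reported here.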

Additional observations from a re-analysis of the deposited data

Results flagged for a closer look

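The TAp63 effect differed between PANC-1 and AsPC-1, by an interaction test in limma, for 11 of 14767 genes. The differences, PANC-1 minus AsPC-1 on the log2(TPM + 1) scale, were 1.38 for IFIT3, 1.197 for IFIT1, 1.57 for SLC15A3, 1.30 for IFNL2, 1.46 for IFI6, 1.83 for UBE2L6, 0.86 for PARP12, 1.88 for OAS2, 1.33 for SAMHD1, 1.01 for BST2 and 2.08 for CMPK2. The limma adjusted p lay between 0.0285 and 0.0431. In PANC-1 itself these genes differed from mock by -0.17 to 0.21, and in AsPC-1 by -2.12 to -0.88. TP63 reached a lower level in AsPC-1 TAp63 (102 and 170 TPM) than in PANC-1 TAp63 (324 and 342 TPM). The check for a sample far from the others of its group needs at least 4 samples, so it was not made here.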

How the results depend on the processing

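TP63 rose and passed under every alternative, by 6.99 (its most abundant transcript on its own) to 10.98 (pseudocount of 0.1); among fits without 1 replicate the range was 8.22 to 8.35. The count of genes past the threshold for TAp63 against mock was 1; it was 2 without the trend in limma, 49 without a filter, 4 with at least 1 TPM in 2 of the 4 libraries compared, 7 with a pseudocount of 0.1, and 7 with transcript rows. Without 1 replicate it ranged from 2 to 6. The count for the cell-line difference was 11; it was 0 without the trend, 3 after quantile normalization, 37 without a filter, 30 with a mean of at least 5 TPM, and 19 with at least 1 TPM in 2 of the 4 libraries. Without 1 replicate it ranged from 1 to 23, and in 6 of these 8 fits none of the 11 genes passed. The cause of these shifts was not tested. Fits to the 4 libraries or the 6 PANC-1 libraries alone, which gave 1 call, hold no cell-line difference.

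Same-numbered deviations from the group means correlated at 0.022 between mock and TAp63 of PANC-1 and at -0.014 to 0.099 over the 6 pairs of mock and TAp63 groups, across 14767 genes, so the numbers were not taken to pair the samples. With the replicate number as a block, 1 gene passed for TAp63 against mock (TP63 at 8.28) and 13 for the cell-line difference, 6 of them among the 11. Of 173 other named genes, 4 passed under at least 1 setting: DESI1 without a filter; ENSG00000226767 without a filter, without the trend, with the filter on the 4 libraries and with a pseudocount of 0.1; ENSG00000250976 likewise except without the trend, and without mock replicate 2; and ENSG00000270705 with a pseudocount of 0.1 and without either TAp63 replicate. A fit without 1 replicate leaves a single library in that group, so the spread comes from the other groups. The opposite sign was measured in 57 values of 39 genes, none of which had a difference above 0.30 (HSD17B4). Unknown depth means that low genes could not be judged by counting error.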
